A study of Mus musculus with 35 samples.

Results

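The Wnt ligands, their receptors and their secreted regulators were followed through the mouse amygdala as 46 genes, out of 52636 Ensembl genes counted in each library. They comprised 17 Wnt ligands, 10 Frizzled receptors (Fzd), the 2 co-receptors Lrp5 and Lrp6, 11 secreted regulators (Dkk1, Dkk2, Dkk3, Dkk4, Dkkl1, Sfrp1, Sfrp2, Sfrp4, Sfrp5, Frzb and Wif1) and 6 R-spondins and Lgr receptors (Rspo1, Rspo3, Rspo4, Lgr4, Lgr5 and Lgr6). The genes were given as a list of symbols that does not hold every member of these families. Rspo2, Wnt3a, Wnt8a and Sost are outside it and were tested in a list of further pathway genes, so the counts by class leave out Rspo2, an R-spondin called lower in the posterior portion of both strains. Each of the 46 symbols matched 1 Ensembl gene, and 21 of them had at least 1 count in all 35 libraries.

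The libraries came from amygdala cells collected by laser capture microscopy from an anterior and a posterior portion in 19 female mice. C57BL/6J is an inbred strain, and B6D2F1N is an F1 hybrid of C57BL/6 and DBA/2. Standard-housed mice received a mock treatment, while enriched mice had a playground for 1 h per day from postnatal day 77. All mice were fed restrictively, were trained on a touchscreen from postnatal day 70 for 37 to 90 days and then took a judgment bias test of 5 days. The anterior libraries numbered 4 in C57BL/6J standard, 2 in C57BL/6J enriched, 5 in B6D2F1N standard and 5 in B6D2F1N enriched mice. The posterior libraries numbered 4, 4, 5 and 6 in the same order, and 16 mice (6 C57BL/6J and 10 B6D2F1N) gave both portions. The mice are called below by strain, housing and number.

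Wnt proteins are secreted lipid-modified ligands that bind Frizzled receptors. With the co-receptors Lrp5 or Lrp6 they stabilise β-catenin, which acts with TCF and LEF factors on target genes such as Axin2, and other Wnt signals act without β-catenin on cell polarity and calcium. Dkk1, Dkk2 and Dkk4 bind the co-receptors, while Dkk3 and Dkkl1 are divergent members of the Dickkopf family that are not known as typical antagonists of Lrp5 and Lrp6. In addition, secreted Frizzled-related proteins and Wif1 bind the ligands, and R-spondins bind Lgr receptors and keep Frizzled receptors at the cell surface. In the brain the family is known for patterning and axon guidance, and in the adult for synapse formation and plasticity.

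The promoters of 3 genes that differed between the portions are shown, because they set Dkkl1 beside 2 Wnt ligands that moved in the same direction. Each window runs from 250 bases before to 50 bases after the start of the gene, as given by RefSeq on GRCm38.p6, and the capitals mark CpG dinucleotides. These starts are those of RefSeq and differ from the GENCODE M21 gene bounds used for the counts and given below. By those bounds the Dkkl1 window lies wholly inside the gene, the Wnt2 window partly so, and the Wnt9a window mostly before it. The Dkkl1 window is chr7:45211834-45212133 on the minus strand, the Wnt2 window chr6:18030396-18030695 on the minus strand and the Wnt9a window chr11:59306680-59306979 on the plus strand.
Dkkl1: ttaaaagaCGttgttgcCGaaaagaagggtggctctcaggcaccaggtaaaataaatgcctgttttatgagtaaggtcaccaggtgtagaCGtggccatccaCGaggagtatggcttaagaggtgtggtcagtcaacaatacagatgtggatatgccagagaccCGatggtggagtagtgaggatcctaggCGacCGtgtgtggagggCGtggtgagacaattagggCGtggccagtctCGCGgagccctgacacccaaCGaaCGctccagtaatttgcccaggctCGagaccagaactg
Wnt2: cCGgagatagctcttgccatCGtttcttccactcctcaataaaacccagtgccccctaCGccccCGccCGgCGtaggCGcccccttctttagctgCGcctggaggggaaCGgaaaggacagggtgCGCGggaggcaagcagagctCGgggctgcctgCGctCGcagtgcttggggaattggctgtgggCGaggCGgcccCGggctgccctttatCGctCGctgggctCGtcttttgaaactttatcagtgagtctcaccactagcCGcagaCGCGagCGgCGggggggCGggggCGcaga
Wnt9a: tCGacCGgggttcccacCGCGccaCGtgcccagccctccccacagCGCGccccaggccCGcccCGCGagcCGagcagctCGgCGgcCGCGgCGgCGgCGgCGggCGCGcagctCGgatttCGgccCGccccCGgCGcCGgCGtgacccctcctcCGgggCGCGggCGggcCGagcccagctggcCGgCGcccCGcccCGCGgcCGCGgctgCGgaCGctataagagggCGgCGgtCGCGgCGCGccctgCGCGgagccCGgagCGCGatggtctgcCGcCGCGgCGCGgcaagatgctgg
The Dkkl1 window held 14 CpG dinucleotides, the Wnt2 window 27 and the Wnt9a window 58, against a median of 7 over 32841 promoter windows of the same length. Over 34 windows that matched 31 of the 46 genes, the median was 24.5 CpG dinucleotides, and 7 of the 34 windows, that of Dkkl1 included, held 14 or fewer. The core letters of a TCF/LEF motif, CTTTGA, searched on both strands, were in 5 of the 34 windows (14.7%) and in 16.0% of all windows. None of the 3 windows shown held these letters, which says nothing about regions outside them.

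The libraries held between 16938534 and 27352623 counts on genes. Where a gene had 0 counts, up to 3 counts remain possible at that depth, and this covers counting error only. Rspo2, a gene known to mark neurons of the anterior basolateral amygdala, lay between 33.1 and 310 counts per 1e6 counts (CPM) in the anterior and between 0.0427 and 54.2 CPM in the posterior libraries. Ppp1r1b, known as a posterior marker there, lay between 7.76 and 72.0 CPM anteriorly and between 7.61 and 149 CPM posteriorly, and it did not pass the test between portions in either strain. The study's methods place its posterior portion nearer to bregma than its anterior portion, the reverse of the usual order, and the names of the labels are kept here. The excitatory neuron markers of the basolateral amygdala were present in every library, at a summed level of 1830 to 4510 CPM anteriorly and 1090 to 5550 CPM posteriorly. The choroid plexus markers summed to 5.78 to 934 CPM anteriorly and 118 to 14300 CPM posteriorly, with B6D2F1N enriched mouse 1 the highest anterior library. B6D2F1N standard mouse 1 had 0 counts of Xist in both of its libraries, while all other libraries held between 54.4 and 206 CPM. The Y-linked genes Ddx3y, Kdm5d, Uty and Eif2s3y were also at 0 in both, so these genes do not show this mouse to be male, and the cause was not tested.

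Levels were compared between genes as CPM per kb of exon. Dkk3 stood highest, with 237 ± 177 CPM per kb (SD, n = 35 libraries), above all others in the mean of either portion. Dkkl1 averaged 47.2 CPM per kb in the anterior libraries, where it was above Fzd3 and Lgr4 in 16 of 16. In the posterior libraries it averaged 7.43 CPM per kb, and it was above Fzd3 in 3 and above Lgr4 in 7 of 19. The Frizzled receptor Fzd3, a receptor known for axon guidance, averaged 16.1 CPM per kb in the anterior and 17.5 in the posterior libraries. The R-spondin receptor Lgr4 averaged 9.62 and 9.45. The order of Dkkl1 and Fzd3 depends on the merged exon lengths, 1576 bases for Dkkl1 and 12804 bases for Fzd3. In CPM, Fzd3 ran from 138 to 394 and Dkkl1 from 28.9 to 123 in the anterior libraries. Of the 46 genes, 23 averaged at least 1 CPM per kb, among them 6 of 17 Wnt ligands and 7 of 10 Frizzled receptors. The lowest were Dkk1 with 0.0068 CPM per kb and Rspo4 with 0.00544 CPM per kb, both with 0 counts in all 16 anterior libraries.

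**Figure D1:**
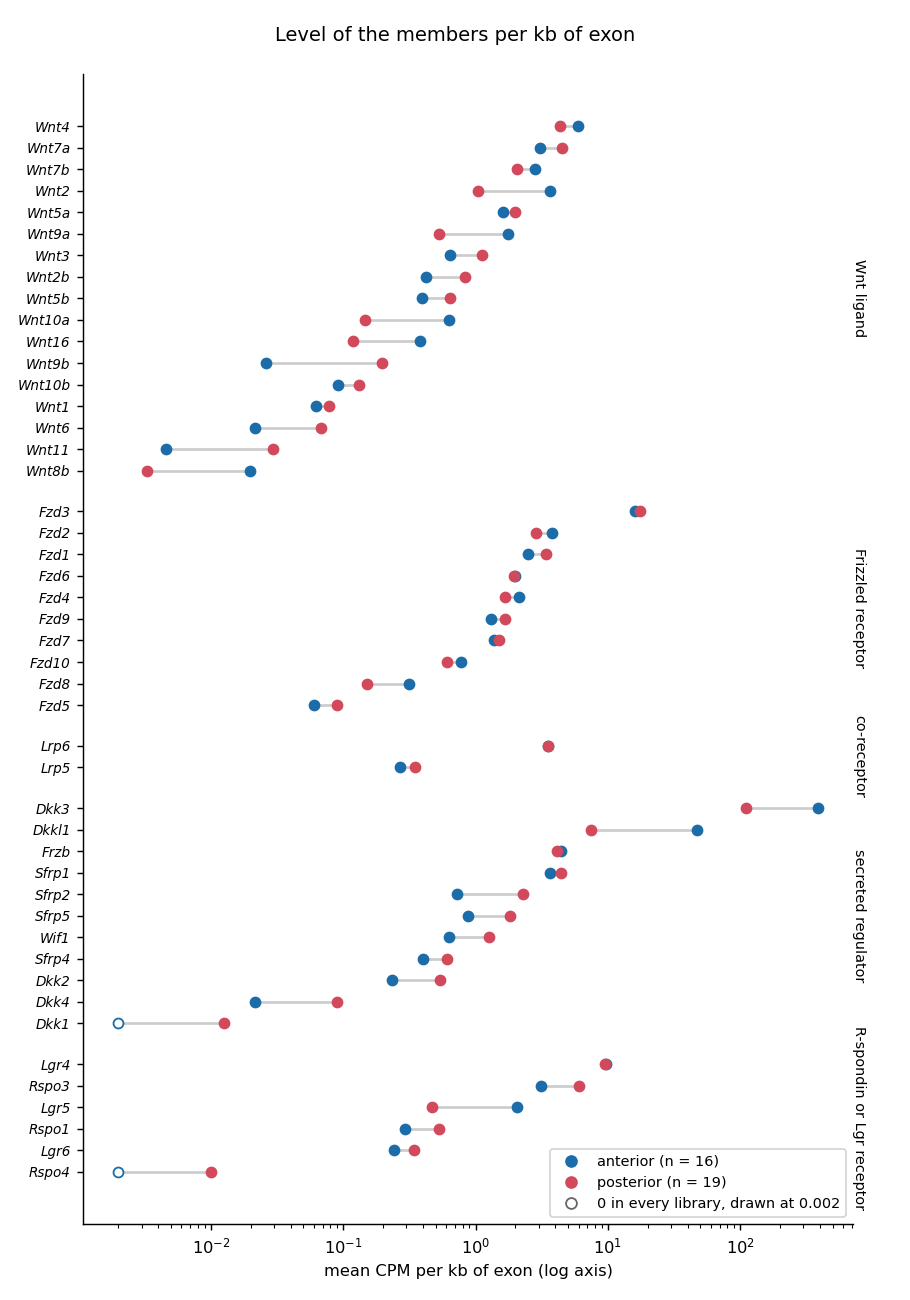
Mean level of each of the 46 genes in CPM per kb of exon (log axis) in 16 anterior and 19 posterior libraries, grouped by class; grey lines join the portions. Dkk3 stands at the top in both portions and Dkkl1 next to it in the anterior portion only, below Fzd3 and Lgr4 in the posterior portion, while Fzd3, Lrp6 and Lgr4 lie nearly on the same point in both.

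The portions were compared within each strain over the mice that gave both, by edgeR's quasi-likelihood test with the mouse as a block, and a gene was called at a Benjamini-Hochberg adjusted p of at most 0.05 over all genes tested. In C57BL/6J mice 6 of 43 genes of the Wnt set with enough counts were called, against 3.64% of all genes. The paper already lists Dkkl1 among its top genes between the portions in this strain, so its place in the count was known beforehand. Lgr5, Dkkl1, Wnt2, Wnt9a and Dkk3 were lower in the posterior portion, where 2.1% of all genes were called lower, and Rspo3 was higher, where 1.54% were. In B6D2F1N mice 2 of 45 genes were called, Dkkl1 and Dkk3, both lower, against 4% of all genes in either direction, 2.37% lower and 1.62% higher. An unadjusted p under 0.05 was reached by 14 of 43 Wnt genes in C57BL/6J, where 13.5% of all genes reached it. In B6D2F1N 8 of 45 reached it, beside 15.5% of all genes. The median log2 fold change of the Wnt genes was 0.020 in C57BL/6J, beside 0.013 over all genes, and 0.424 in B6D2F1N, beside 0.148.

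**Figure D2:**
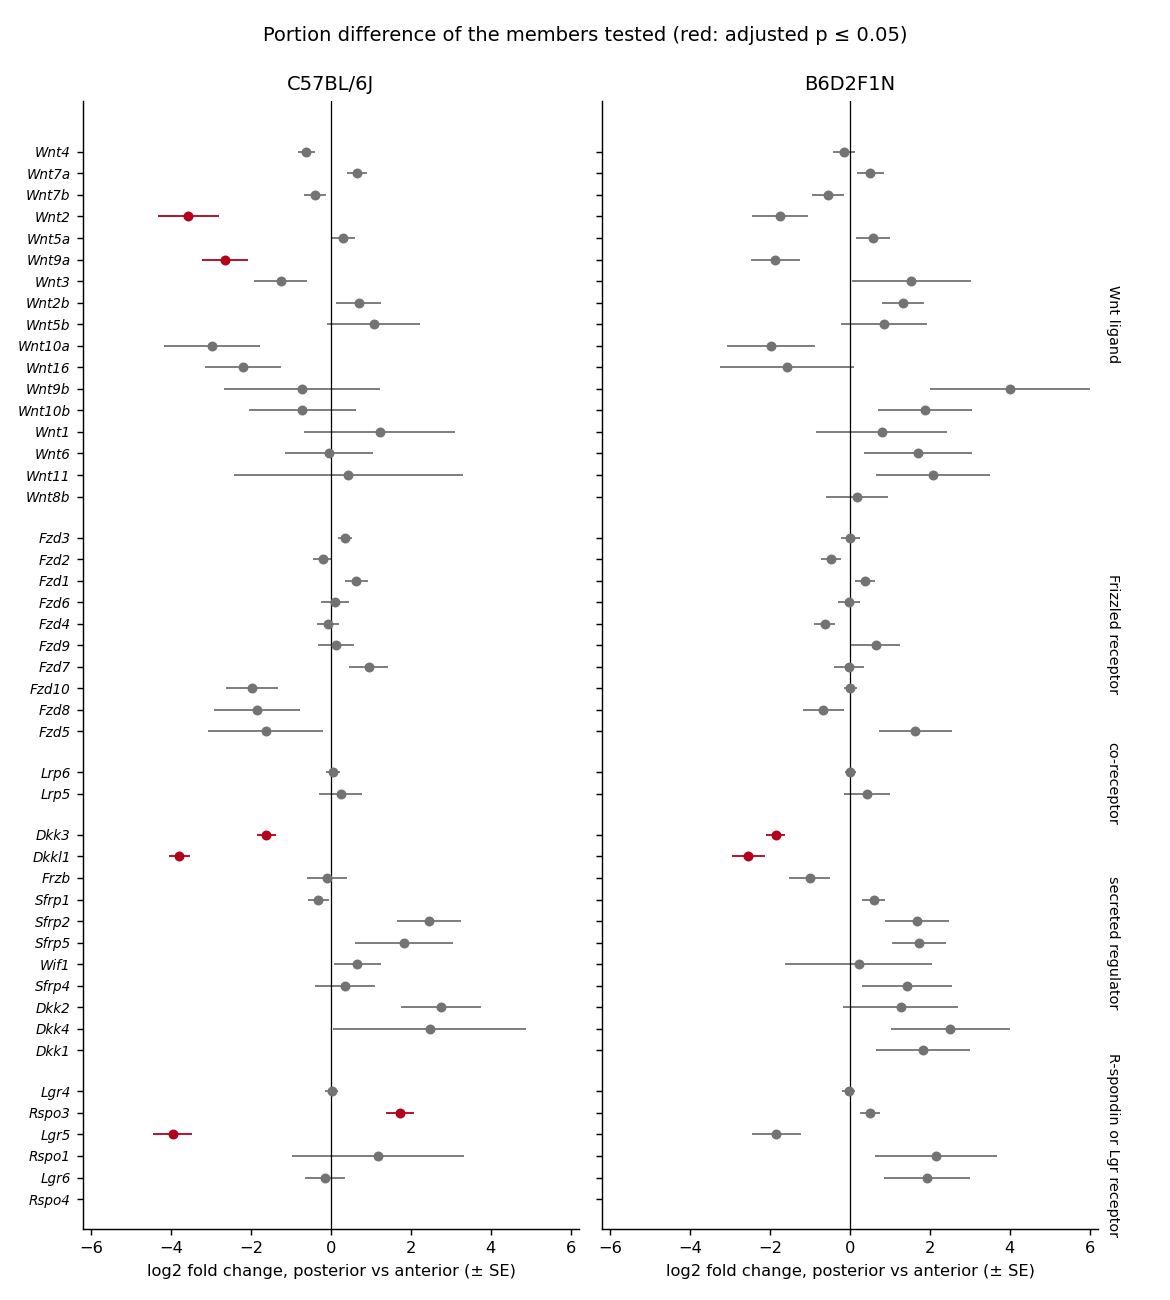
Log2 fold change, posterior against anterior, with its standard error for each Wnt gene tested, in C57BL/6J (6 mice) and B6D2F1N (10 mice), ordered by class and level; red marks an adjusted p of at most 0.05. Most receptors lie near 0, and Dkkl1 and Dkk3 are red in both strains. The bar of Fzd10 in B6D2F1N is too short, since an error derived from a fold change near 0 is unreliable for a gene of low counts.

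Among the ligands, Wnt2 and Wnt9a were lower in the posterior portion of C57BL/6J mice. Wnt2, a ligand known from vascular and lung development, lies on chromosome 6 at 17988940 to 18030585 of GRCm38. Over the 6 paired C57BL/6J mice its level had a lowest, median and highest value of 3.07, 5.96 and 14.6 CPM anteriorly and of 0, 0.55 and 2.48 CPM posteriorly. The paired values of the portions did not overlap, and all 6 mice were lower in the posterior portion, with a log2 fold change of -3.57 (SE 0.757, adjusted p = 0.00943). Of the C57BL/6J posterior libraries without a partner, enriched mouse 2 had 4.42 CPM and enriched mouse 4 had 2.96 CPM. In B6D2F1N mice Wnt2 ran from 2.04 to 19.2 CPM anteriorly and from 0.168 to 7.06 CPM posteriorly over the 10 pairs, with 8 of 10 mice lower. The groups overlapped there, and the log2 fold change of -1.75 (SE 0.697) had an adjusted p of 0.211. It was -3.17 (adjusted p = 0.0507) without B6D2F1N standard mice 2 to 5 and -1.15 (adjusted p = 0.546) without enriched mice 1 and 3, both settings chosen after seeing the data.

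Wnt9a, a ligand known from skeletal and joint development, lies on chromosome 11 at 59306928 to 59333552. Its lowest, median and highest values over the 6 C57BL/6J pairs were 6.3, 8.19 and 10.6 CPM anteriorly and 0.0429, 1.55 and 2.8 CPM posteriorly. All 6 mice were lower in the posterior portion and the paired values did not overlap, with a log2 fold change of -2.64 (SE 0.576, adjusted p = 0.0116). The unpaired posterior library of C57BL/6J enriched mouse 2, with 6.26 CPM, was the only one near the anterior level. In B6D2F1N mice 8 of 10 were lower, the groups overlapped, and the log2 fold change was -1.87 (SE 0.616, adjusted p = 0.108). DESeq2 called Wnt9a in B6D2F1N as well (-1.86, SE 0.493, adjusted p = 0.0122). Both C57BL/6J calls were lost with 1 mouse left out. The adjusted p of Wnt2 was 0.0521 without C57BL/6J standard mouse 4, and that of Wnt9a was 0.0565 without C57BL/6J standard mouse 1.

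Wnt4 and Wnt7a were the ligands with the highest levels per kb. Wnt4, a ligand known from kidney and gonad development, averaged 21.4 ± 9.41 CPM (SD, n = 35) and Wnt7a, which is known to act in synapse formation, averaged 12.1 ± 5.8 CPM. Wnt4 was lower in the posterior portion in 5 of 6 C57BL/6J mice and Wnt7a higher in 6 of 6. Neither difference was called, with log2 fold changes of -0.62 (SE 0.207, adjusted p = 0.133) and 0.65 (SE 0.246, adjusted p = 0.208). In B6D2F1N mice 4 of 10 were higher for Wnt4 and 6 of 10 for Wnt7a. Of the other ligands tested, none was called by edgeR in either strain, beside 3.64% of all genes in C57BL/6J and 4% in B6D2F1N. DESeq2, which called 10.4% of all genes in B6D2F1N, called Wnt2b higher there (1.33, SE 0.429, adjusted p = 0.0419). The largest differences among them had wide errors, such as Wnt10a with -2.98 (SE 1.21) in C57BL/6J and Wnt9b with 4.01 (SE 2.00) in B6D2F1N.

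Wnt1, Wnt6, Wnt8b, Wnt9b and Wnt11 had 0 counts in more than 15 of the 35 libraries, and Wnt8b had counts in only 5. Wnt9b was at 0 in most libraries but reached 3.57, 6.77 and 4.5 CPM in the posterior libraries of B6D2F1N standard mice 2 and 3 and B6D2F1N enriched mouse 6. These same 3 libraries held the highest posterior levels of Wnt3, with 12.5, 11.1 and 13.9 CPM, and of Lgr5, with 8.49, 12.9 and 13.2 CPM, apart from 8.95 CPM of Lgr5 in B6D2F1N enriched mouse 3. They also held high levels of Fzd10, with 6.49, 8.4 and 6.29 CPM. The oligodendrocyte markers summed to 22700, 18700 and 11200 CPM in these 3 libraries and to 2260 to 27200 CPM over all posterior libraries. These genes and libraries were picked after their values were seen, and the pattern was not tested.

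None of the 10 Frizzled receptors and neither co-receptor was called by edgeR between the portions in either strain. Of all genes, 3.64% were called in C57BL/6J and 4% in B6D2F1N, so a count of 0 is near the background. Fzd3 had a lowest, median and highest value of 138, 200 and 394 CPM in the 16 anterior and of 72.6, 207 and 485 CPM in the 19 posterior libraries. Its log2 fold change was 0.35 (SE 0.175, adjusted p = 0.402) in C57BL/6J and 0.01 (SE 0.235, adjusted p = 0.993) in B6D2F1N. Fzd2, next in level per kb, ran from 6.17 to 24.9 CPM anteriorly and from 6.0 to 17.2 CPM posteriorly. Both genes overlapped widely between the portions. The co-receptor Lrp6, which is needed for β-catenin signalling, averaged 47.8 ± 12.2 CPM in the anterior (n = 16) and 47.9 ± 15.3 CPM in the posterior portion (n = 19), and its log2 fold changes were 0.05 (SE 0.182) and 0.00 (SE 0.140). Lrp5, also a co-receptor, averaged 2.64 ± 1.28 and 3.41 ± 2.26 CPM.

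Fzd10 had the lowest p of the Frizzled receptors and co-receptors. It was lower in the posterior portion in 6 of 6 C57BL/6J mice, with a log2 fold change of -1.98 (SE 0.650), and edgeR gave an adjusted p of 0.121. DESeq2 called it, with a log2 fold change of -1.97 (SE 0.591, adjusted p = 0.0229). In B6D2F1N mice 6 of 10 were lower, with a fitted log2 fold change near 0. Fzd4, the receptor for norrin in blood vessels, had a log2 fold change of -0.63 (SE 0.259, adjusted p = 0.227) in B6D2F1N and of -0.07 (SE 0.273) in C57BL/6J. For Fzd5, 17.8% of the exon length lies opposite the exons of another gene, Gm38058, and reads of the 2 genes cannot be told apart without strand.

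The secreted regulators held the 2 differences that were called in both strains. Dkkl1, a small Dickkopf-like protein studied mainly in developing sperm, lies on chromosome 7 at 45207519 to 45212147. Its anterior level was 108, 75, 96.7 and 119 CPM in C57BL/6J standard mice 1 to 4 and 58.9 and 52.8 CPM in C57BL/6J enriched mice 1 and 3. In the posterior portion the C57BL/6J standard mice had 5.78, 8.43, 5.96 and 5.3 CPM and the enriched mice 10.3, 15.1, 2.4 and 11.6 CPM. No posterior C57BL/6J library reached the lowest anterior one. The posterior level was lower in 6 of 6 mice, with a log2 fold change of -3.80 (SE 0.261, adjusted p = 1.23e-07).

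In B6D2F1N mice the anterior level of Dkkl1 was 84.7, 71.9, 28.9, 72.3 and 85.5 CPM in standard mice 1 to 5. It was 46.8, 60.3, 47.3, 123 and 58.5 CPM in enriched mice 1, 2, 3, 4 and 6. The posterior level was 5.25, 20.6, 15.2, 15.6 and 27.8 CPM in standard mice 1 to 5, and had a lowest, median and highest value of 1.43, 5.3 and 47.6 CPM in the 6 enriched mice. All 10 paired mice were lower in the posterior portion, with a log2 fold change of -2.55 (SE 0.408, adjusted p = 0.00123). The groups overlapped only through the posterior library of enriched mouse 2 and the anterior libraries of standard mouse 3 and enriched mice 1 and 3.

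**Figure D3:**
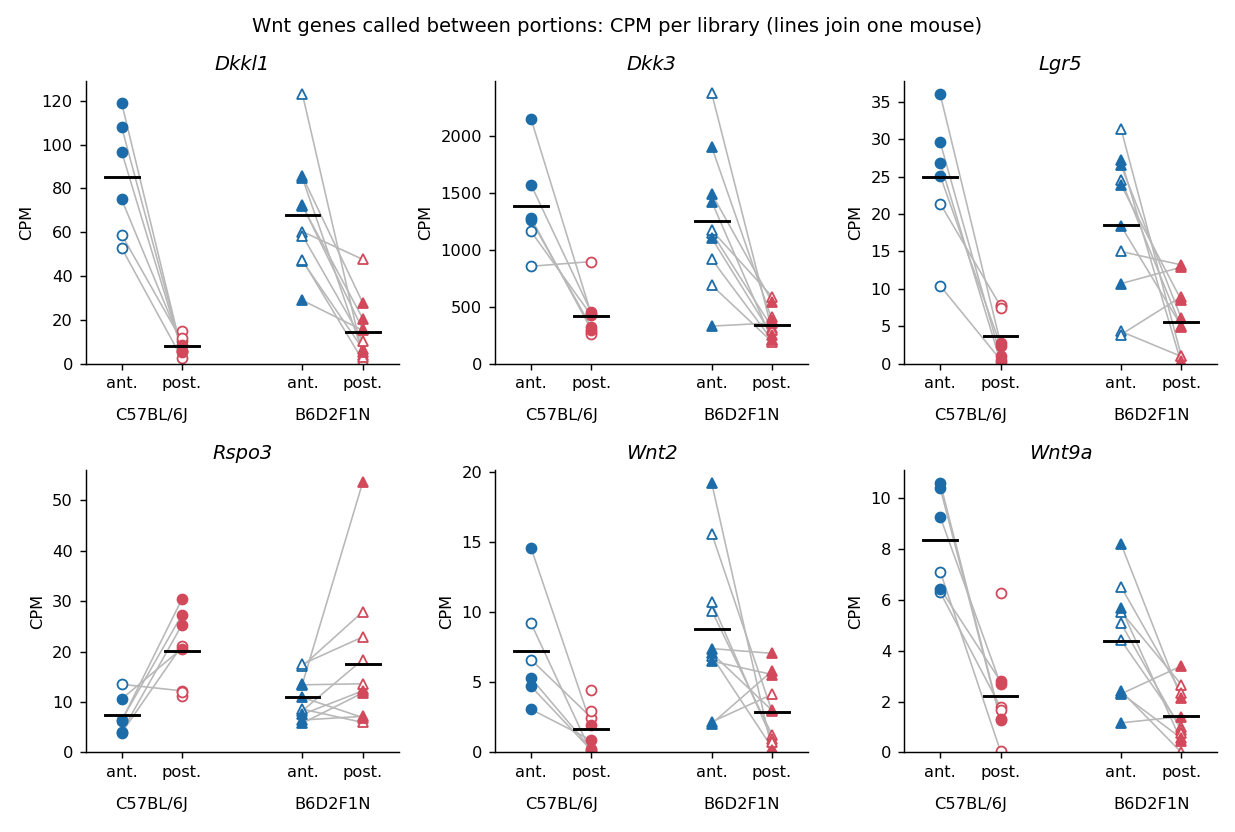
CPM of the 6 Wnt genes called between portions, 1 point per library (circles C57BL/6J, triangles B6D2F1N; blue anterior, red posterior; open symbols enriched mice), with grey lines joining the libraries of 1 mouse and black bars at group means. Dkkl1 falls in every pair, from 28.9 to 123 CPM down to 1.43 to 47.6 CPM, and Rspo3 lies higher in most pairs.

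Dkk3, a Dickkopf protein that neurons are known to make in the forebrain, lies on chromosome 7 at 112116017 to 112159057. Over the 6 C57BL/6J pairs its lowest, median and highest values were 854, 1270 and 2150 CPM anteriorly and 298, 429 and 895 CPM posteriorly. The posterior level was lower in 5 of 6 mice, with a log2 fold change of -1.61 (SE 0.237, adjusted p = 0.000436). The exception was C57BL/6J enriched mouse 1, with 854 CPM anteriorly and 895 CPM posteriorly. In B6D2F1N mice the values were 329, 1160 and 2370 CPM anteriorly and 192, 304 and 588 CPM posteriorly. It was lower in 9 of 10 mice, with a log2 fold change of -1.86 (SE 0.237, adjusted p = 0.000145). The exception was B6D2F1N standard mouse 3, whose anterior library also had a Rspo2 level of 33.5 CPM and the lowest anterior level of Dkkl1.

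Set beside the other secreted regulators, Dkkl1 and Dkk3 were the members called, and most of the others had positive fold changes that did not pass the test. In C57BL/6J 6 of 10 regulators tested had a positive fold change and in B6D2F1N 8 of 11, with a class median of 0.51 and 1.27 on the log2 scale. Of all Wnt genes tested, 22 of 43 and 29 of 45 were positive, and the median over all genes was 0.013 and 0.148. The regulators tested include Dkk4, and in B6D2F1N also Dkk1, with totals of 58 and 15 counts over the 35 libraries, so their signs carry little weight. Sfrp2, a Wnt-binding protein, had a log2 fold change of 2.45 (SE 0.794, adjusted p = 0.115) in C57BL/6J and of 1.67 (SE 0.802, adjusted p = 0.327) in B6D2F1N. Sfrp5 had values of 1.83 (SE 1.23) and 1.74 (SE 0.677), higher in 5 of 6 and 9 of 10 mice. None of these other 9 regulators was called by the main edgeR test within either strain, beside 3.64% and 4% of all genes. DESeq2, which called 8.64% of all genes in C57BL/6J, called Sfrp2 (adjusted p = 0.0253) and Dkk2 (2.90, SE 0.84, adjusted p = 0.0483) higher there. Sfrp2 was also called in C57BL/6J by edgeR with no minimum count (adjusted p = 0.0182). A single portion effect fitted by edgeR over the mice of both strains, which belongs to neither strain alone, called it as well (1.99, SE 0.619, adjusted p = 0.0429). Reads of Sfrp2 and of Gm26771, which lies opposite 16.1% of its exon length, cannot be told apart without strand. Frzb and Sfrp1, the next in level per kb, had log2 fold changes of -0.10 (SE 0.503) and -0.31 (SE 0.263) in C57BL/6J and of -1.01 (SE 0.506) and 0.59 (SE 0.283) in B6D2F1N.

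**Figure D4:**
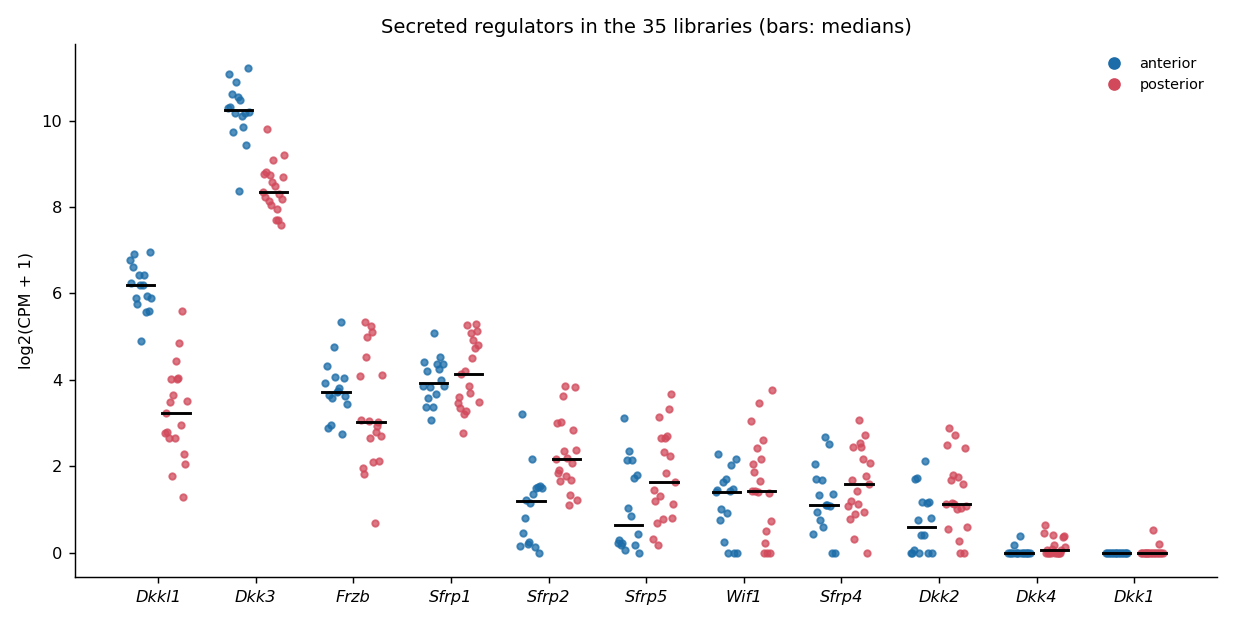
Level of the 11 secreted regulators in 16 anterior (blue) and 19 posterior (red) libraries as log2(CPM + 1), with bars at the medians. The anterior points of Dkkl1 and Dkk3 lie mostly above the posterior points, and the portions of Frzb and Sfrp1 overlap.

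Dkk3 made up a median of 86.4% (73.3 to 91.0%) of the summed CPM per kb of the 11 regulators in the anterior libraries and 82.4% (68.4 to 91.9%) in the posterior libraries. Dkkl1 made up 9.82% (6.76 to 15.2%) and 3.66% (1.02 to 22.0%). For each 100 units of Dkk3 in CPM per kb there were 11.1 units of Dkkl1 in the median anterior and 4.14 in the median posterior library, with ranges of 7.43 to 18.7 and 1.21 to 32.1. These ranges overlapped.

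The neuron markers moved with the portions as well. Of 6 excitatory neuron markers, 3 (Slc17a7, Neurod6 and Tbr1) were called lower and 1 (Slc17a6) higher in the posterior portion of both strains. The median log2 fold change of the 6 was -0.84 in C57BL/6J and -1.51 in B6D2F1N. In bulk samples, fewer cells of a type and less RNA per cell cannot be told apart. Astrocyte markers were called higher for 3 of 5 (Gfap, Slc1a3 and Gja1) in C57BL/6J and 1 of 5 (Gfap) in B6D2F1N. Inhibitory neuron markers were called lower for 2 of 6 (Pvalb and Vip) and 1 of 6 (Vip). In C57BL/6J the striatal marker Drd1 was called lower, 1 of 6, and in B6D2F1N the mural markers Rgs5 and Vtn, 2 of 5. No oligodendrocyte, microglia or endothelial marker was called by edgeR in either strain. The choroid plexus markers were called higher in the posterior portion for 4 of 6 in C57BL/6J and 6 of 6 in B6D2F1N, and the ependymal markers for 2 and 4 of 5. In the anterior libraries the choroid plexus marker Aqp1 was at 0 in 13 and Folr1 at 0 in 10 of 16. The part of these markers in the differences of the secreted regulators was not tested.

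In the R-spondin and Lgr class, Lgr5 was lower and Rspo3 higher in the posterior portion of C57BL/6J mice. Lgr5, a receptor for R-spondins known as a stem cell marker in the gut, lies on chromosome 10 at 115450311 to 115587780. Its lowest, median and highest values over the 6 C57BL/6J pairs were 10.4, 26.0 and 36.0 CPM anteriorly and 0.243, 1.7 and 7.7 CPM posteriorly. The groups did not overlap, all 6 mice were lower, and the log2 fold change was -3.96 (SE 0.490, adjusted p = 8.6e-05). In B6D2F1N mice the values were 3.89, 21.1 and 31.4 CPM anteriorly and 0.0559, 5.56 and 13.2 CPM posteriorly, lower in 8 of 10 mice. These groups overlapped, and the log2 fold change of -1.85 (SE 0.616) had an adjusted p of 0.114. With no minimum count the adjusted p was 0.0354. Posterior libraries above the anterior library of the same mouse were those of B6D2F1N standard mouse 3 and enriched mouse 3.

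Rspo3, a secreted activator of Wnt signalling known from blood vessel development, lies on chromosome 10 at 29452416 to 29535867. Its lowest, median and highest values over the 6 C57BL/6J pairs were 3.86, 6.31 and 13.5 CPM anteriorly and 12.2, 23.3 and 30.4 CPM posteriorly. It was higher in 5 of 6 mice, with a log2 fold change of 1.74 (SE 0.349, adjusted p = 0.00615), and only enriched mouse 1 went the other way. In B6D2F1N mice the values were 5.8, 9.74 and 17.5 CPM anteriorly and 5.92, 12.9 and 53.6 CPM posteriorly, higher in 8 of 10 mice. The log2 fold change there was 0.50 (SE 0.250, adjusted p = 0.358). The highest library, with 53.6 CPM, was that of B6D2F1N standard mouse 1, the mouse without Xist. The opposite gene Gm48159 covers 13.1% of the exon length of Rspo3.

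Rspo3 was read beside Dcn, which is 1 of 6 markers listed for meningeal fibroblasts. Dcn alone of the 6 was called higher in the posterior portion, with a log2 fold change of 5.80 in C57BL/6J (adjusted p = 9.45e-09) and of 2.97 in B6D2F1N (adjusted p = 0.0145). Its level was 11.1 to 46.1 CPM in the anterior libraries, 8.93 to 55.3 CPM in the posterior libraries of B6D2F1N standard mice 2 to 5 and 173 to 1720 CPM in the other 15 posterior libraries. Rspo3 ran from 6.9 to 12.2 CPM in those 4 libraries and from 5.92 to 53.6 CPM in the other 15. The other 5 markers together summed to 5.21 to 42.4 CPM in the anterior libraries, 8.46 to 22.7 CPM in the 4 libraries and 15.2 to 68.7 CPM in the other 15. The difference in the marker sum was therefore mainly that of Dcn, and the list as a class was not shown to differ. With these 4 mice left out, the B6D2F1N log2 fold change of Rspo3 was 0.65 (SE 0.322, adjusted p = 0.387). The part of Dcn-expressing cells in the difference was not tested.

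**Figure D5:**
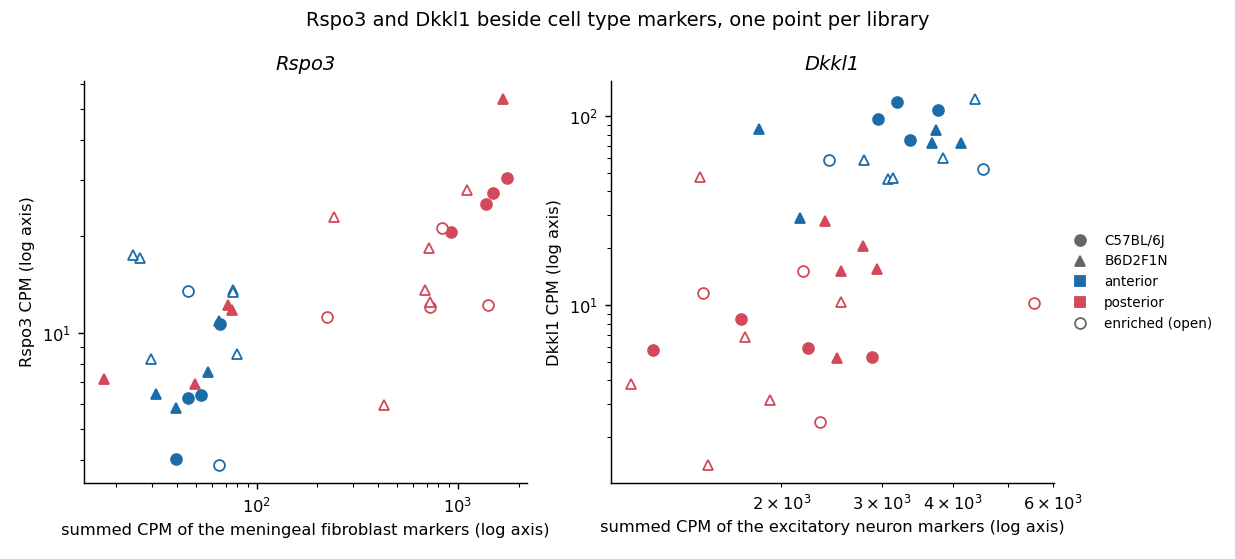
Left, Rspo3 against the summed CPM of 6 meningeal fibroblast markers; right, Dkkl1 against the summed CPM of 6 excitatory neuron markers; both axes are log axes, 1 point per library (blue anterior, red posterior, circles C57BL/6J, triangles B6D2F1N, open symbols enriched). The marker sum of the posterior libraries to the right is mostly Dcn. On the left the posterior libraries of B6D2F1N standard mice 2, 3 and 5 lie within the range of marker sums of the anterior ones, and that of mouse 4, with 17.4 CPM, lies below it. On the right the summed marker levels of the portions overlap, although 3 of the 6 markers were called lower in the posterior portion.

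Lgr4, the R-spondin receptor with the highest level, did not differ between portions beyond its spread. It averaged 56.6 ± 14.1 CPM in the anterior (n = 16) and 55.6 ± 17.2 CPM in the posterior libraries (n = 19), with log2 fold changes of 0.02 (SE 0.158) and -0.04 (SE 0.162). Lgr6 and Rspo1 were low and not called. Rspo4 had counts in 3 libraries and was too low to be tested in either strain.

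The difference between the strains in the portion effect was tested by an interaction term over the 16 mice. None of 46 genes was called and 0% of all genes were, and 5 had an unadjusted p under 0.05, beside 2.96% of all genes. These were Rspo3 (unadjusted p = 0.00922), Lgr5 (0.0256), Dkkl1 (0.0317), Sfrp1 (0.0404) and Fzd5 (0.0414), each with an adjusted p of 1. An interaction with housing called none of 46 genes and 0% of all, with 2 at an unadjusted p under 0.05, beside 3.02% of all genes.

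The strains were compared in 4 settings, B6D2F1N against C57BL/6J, and no Wnt gene was called in any. In the standard anterior setting 39 genes were tested, with 0.37% of all genes called, and 6 had an unadjusted p under 0.05, beside 9.0% of all genes. In the standard posterior setting 43 were tested with 0.373% of all genes called, and 10 had an unadjusted p under 0.05, beside 10.3%. In the enriched anterior setting 42 were tested with 0.0639% called, and 2 reached that p, beside 4.33%. In the enriched posterior setting 43 were tested with 0.394% called, and 3 reached it, beside 9.11%.

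Several strain differences lay near the threshold or passed it under another setting, and they were picked after their values were seen. Sfrp5 had 0.17, 0.224, 0.137 and 0.173 CPM in C57BL/6J standard anterior mice 1 to 4 and 3.4, 1.04, 4.08, 0.807 and 3.43 CPM in B6D2F1N standard anterior mice 1 to 5. The groups did not overlap, with a log2 fold change of 3.82 (SE 0.827, adjusted p = 0.0723). Under DESeq2, which called 1.2% of all genes, its adjusted p was 0.000121. In the same comparison the median log2 fold change was 0.67 for the striatal, 0.66 for the ependymal and 0.56 for the choroid plexus markers. None of these markers was called, and their part was not tested. In the enriched anterior libraries Sfrp5 was 7.74 and 0.0501 CPM in the 2 C57BL/6J mice and 0 to 2.47 CPM in the B6D2F1N mice, so the order was not repeated there.

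Dkkl1 had a higher posterior level in B6D2F1N than in C57BL/6J mice of standard housing, 16.9 ± 8.25 CPM (n = 5) against 6.37 ± 1.40 CPM (n = 4), but was not called (log2 fold change 1.42, SE 0.40, adjusted p = 0.268). B6D2F1N standard mouse 1, with 5.25 CPM, was the only one at the C57BL/6J level. Without that mouse the log2 fold change was 1.65 (SE 0.304, adjusted p = 0.0257), and under DESeq2 with it the adjusted p was 0.0346, where 1.82% of all genes were called. The enriched posterior libraries overlapped, with 10.3, 15.1, 2.4 and 11.6 CPM in C57BL/6J mice 1 to 4 and a lowest, median and highest value of 1.43, 5.29 and 47.6 CPM in B6D2F1N mice, and Dkkl1 had a log2 fold change of 0.31 there (SE 0.775, adjusted p = 0.964). In the standard posterior comparison without B6D2F1N mouse 1 Rspo3 was called lower in B6D2F1N, with a log2 fold change of -1.43 (SE 0.284, adjusted p = 0.0399). With that mouse the log2 fold change of Rspo3 was -0.49, with an adjusted p of 0.853. The B6D2F1N mice left, standard mice 2 to 5, are those with 8.93 to 55.3 CPM of Dcn, against 902 to 1720 CPM in the C57BL/6J libraries. In the comparison with all mice the median log2 fold change was 1.32 for the choroid plexus markers, 1.18 for the striatal, 1.15 for the ependymal, 0.98 for the excitatory neuron and -1.14 for the meningeal fibroblast markers, none called. The part of these markers in either difference was not tested.

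In the enriched posterior libraries Frzb, a secreted Frizzled-related protein, had 39.5, 21.9, 31.0 and 7.31 CPM in C57BL/6J mice 1 to 4 and a lowest, median and highest value of 3.38, 6.28 and 16.3 CPM in B6D2F1N mice. The groups overlapped through C57BL/6J mouse 4 and B6D2F1N mouse 6, and the log2 fold change was -1.73 (SE 0.438, adjusted p = 0.159). Sfrp1 had 5.87, 8.2, 17.5 and 8.66 CPM against 10.2 to 38.2 CPM, with a log2 fold change of 1.48 (SE 0.365, adjusted p = 0.141). Without B6D2F1N enriched mouse 6 both passed, with adjusted p-values of 0.0407 for Frzb and 0.03 for Sfrp1. Without C57BL/6J enriched mouse 4 Frzb passed, with an adjusted p of 0.0426. In the standard posterior libraries Frzb had nearly the same median in both strains, 5.13 CPM for C57BL/6J and 5.25 CPM for B6D2F1N. B6D2F1N mice 2 and 3, with 37.1 and 33.6 CPM, stood above the other 3 of their group, which had 0.615 to 5.25 CPM. In the enriched posterior comparison the choroid plexus markers had a median log2 fold change of 2.91 and the oligodendrocyte markers of -1.17. The excitatory neuron markers had a median of -0.95. No marker of these lists was called, and their part was not tested. Lrp6 had an unadjusted p under 0.05 in 3 of the 4 settings, with log2 fold changes of 0.43 (SE 0.195), 0.78 (SE 0.260) and 0.71 (SE 0.270), none of them called.

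Housing was compared in each strain and portion, enriched against standard, and no Wnt gene was called. In the C57BL/6J anterior portion 41 genes were tested with 0% of all genes called, and 10 had an unadjusted p under 0.05, beside 6.2% of all genes, from 2 enriched mice against 4. In the C57BL/6J posterior portion 42 were tested with 0.0163% of all genes called, and 6 reached that p, beside 10.3%. In B6D2F1N mice 41 were tested in the anterior and 43 in the posterior portion with 0% of all genes called in both. There, 1 and 0 Wnt genes had an unadjusted p under 0.05, beside 6.3% and 6.59% of all genes. DESeq2 called 0 Wnt genes in the anterior and posterior portions of B6D2F1N mice, beside 0.0335% and 0.0549% of all genes, and 0 in the C57BL/6J anterior portion, beside 0.531%.

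Wnt3, a ligand known from early axis formation and adult neurogenesis, was the Wnt gene with the lowest p between housings. In the C57BL/6J posterior libraries it was 0.207, 0.608, 0.351 and 0.139 CPM in standard mice 1 to 4 and 2.61, 5.53, 1.37 and 4.25 CPM in enriched mice 1 to 4. The groups did not overlap, with a log2 fold change of 3.37 (SE 0.782, adjusted p = 0.186). Without C57BL/6J enriched mouse 3 the adjusted p was 0.04, and under DESeq2, which called 1.56% of all genes, it was 0.00109. The oligodendrocyte markers moved with it, with a summed level of 7790 to 12300 CPM in the standard and 17500 to 27200 CPM in the enriched libraries. All 5 had positive fold changes, with a median of 1.53, and Mbp was called (1.97, SE 0.271, adjusted p = 0.0366). The ependymal markers had a median of 1.58 and the excitatory neuron markers of 0.94, with none called. The part of these markers in the difference of Wnt3 was not tested. In the anterior libraries the C57BL/6J standard mice had 1.14, 1.07, 1.05 and 0.0576 CPM and the enriched mice 15.7 and 1.85 CPM, with a log2 fold change of 3.39 (SE 0.921, adjusted p = 0.599). With no minimum count edgeR called it there (SE 0.721, adjusted p = 0.000729), with 0.949% of all genes called. Enriched mouse 1, with the 15.7 CPM, had an oligodendrocyte marker sum of 23900 CPM and a striatal sum of 318 CPM in its anterior library. The other 5 anterior C57BL/6J libraries had 7790 to 10600 CPM and 75.2 to 132 CPM, and the part of these markers was not tested. In B6D2F1N mice it was 4.84 ± 6.41 CPM in standard (n = 5) and 4.27 ± 5.30 CPM in enriched posterior libraries (n = 6), with no separation. The strain by housing term for Wnt3 in the posterior portion had an unadjusted p of 0.046 and an adjusted p of 0.581.

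Dkkl1 in the anterior portion of C57BL/6J mice was 55.8 ± 4.35 CPM in enriched (n = 2) and 99.7 ± 18.7 CPM in standard mice (n = 4). The log2 fold change was -0.86 (SE 0.255, adjusted p = 0.614). In the same libraries the anterior marker Rspo2 had a log2 fold change of -1.08 (SE 0.266, adjusted p = 0.544). The posterior marker Ppp1r1b had 0.34 (SE 0.636, adjusted p = 0.999). The striatal markers had a median log2 fold change of 1.61, the ependymal markers of 1.56 and the oligodendrocyte markers of 1.05. All members of these lists were positive and none was called. The part of any of these markers in the difference of Dkkl1 was not tested. In B6D2F1N mice the anterior level of Dkkl1 was 67.1 ± 31.6 CPM in enriched and 68.7 ± 23.2 CPM in standard mice. Rspo3 in the posterior portion of C57BL/6J mice was 14.2 ± 4.74 CPM in enriched and 25.9 ± 4.09 CPM in standard mice, with a log2 fold change of -0.88 (SE 0.274, adjusted p = 0.344). In the same libraries Dcn was 902 to 1720 CPM in standard mice and 1380, 173, 794 and 689 CPM in enriched mice 1 to 4 (log2 fold change -0.84, SE 0.431, adjusted p = 0.502). The oligodendrocyte, ependymal and excitatory neuron markers moved there as given for Wnt3. The part of Dcn or of these markers in the difference of Rspo3 was not tested. The strain by housing interaction called none of 42 genes in the anterior and none of 45 in the posterior portion, as it called 0% of all genes in both. An unadjusted p under 0.05 was reached by 2 and 7 Wnt genes, beside 5.98% and 8.38% of all genes.

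A further list of 60 genes of the pathway, from secretion to the nucleus and planar polarity, was tested in the same fits. In C57BL/6J 55 were tested between the portions, with 2 higher and 3 lower, and in B6D2F1N 58, with 2 higher and 4 lower. Over all genes, 1.54% were called higher and 2.1% lower in C57BL/6J, and 1.62% and 2.37% in B6D2F1N. Called lower in both strains were Rspo2 (log2 fold change -2.59 and -3.63), Kremen1, a Dickkopf receptor (-1.19 and -1.45), and Prickle1, a planar polarity protein (-0.94 and -0.75). Tpbg, an inhibitor of Wnt signalling at the membrane, was called higher in C57BL/6J alone (2.53, SE 0.326, adjusted p = 0.000129), and in B6D2F1N it was 1.26 (SE 0.377, adjusted p = 0.0721). Tcf7l2, a TCF factor, was called higher in B6D2F1N (1.31, SE 0.255, adjusted p = 0.00499) and had 0.16 (SE 0.294) in C57BL/6J. Sostdc1 was called in C57BL/6J (0.84), and Vangl1 (1.04) and Celsr2 (-0.63) in B6D2F1N.

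Between the portions the feedback targets of β-catenin signalling were not called in either strain, 0 of 6 tested in each. Of all genes, 3.64% were called in C57BL/6J and 4% in B6D2F1N, so a count of 0 is near the background. Axin2 averaged 6.72 ± 2.72 CPM anteriorly and 8.59 ± 3.03 CPM posteriorly, with log2 fold changes of 0.20 (SE 0.324) and 0.52 (SE 0.365). In the strain, housing and interaction tests edgeR called 0 of the 60 genes, where it called between 0% and 0.394% of all genes, so a count of 0 is near the background.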

How the data were processed

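RNA of laser-captured amygdala portions was sequenced as single reads of 72 bases. The deposited values are raw counts per Ensembl gene, which the authors made with bcl2fastq, FastQC 0.11.7, Trimmomatic 0.38, HISAT2 2.1.0, SAMtools 1.8 and HTSeq 0.11.2. The annotation release and strand setting are not given in the sources used here. The tally rows of HTSeq were left out of library sizes; reads on no gene came to 13.7 to 26.4%, reads aligned more than once to 6.23 to 10.9% and ambiguous reads to 3.06 to 3.74%.

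Counts were tested in R 4.3.3 with edgeR 4.0.16 (quasi-likelihood F test, TMM scaling) over genes with a total of at least 10 counts in the libraries compared, with Benjamini-Hochberg adjustment over all of them. The standard error of a fold change was derived as its size divided by the square root of F, which is unreliable near 0 for genes of low counts. The 10 comparisons were portion within each strain, strain within each housing and portion, and housing within each strain and portion, and 4 interaction tests were added. Portions were paired by mouse, since the labels give the animal. Over 16 mice and 15073 genes, both libraries of the same mouse deviated from their group means with a median correlation of 0.053 (-0.106 to 0.215). No 2 libraries were identical. The scripts were checked on simulated counts. Levels per kb used the merged exons of GENCODE M21 on GRCm38, in which 52489 of 52636 genes were found. Strain and housing were compared between mice, so their p-values measure the spread between animals. The paper states that mice of the same strain shared cages and that each playground was joined to a home cage. Cage was not part of the strain and housing fits. Mice of a cage were therefore treated as independent, and differences between cages were not separated from strain or housing.

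Genes were named as follows: Dkkl1, every Wnt gene called in at least 1 of the 10 comparisons, the 2 with the highest CPM per kb in each class, pathway genes called between portions in both strains, and Rspo2 and Ppp1r1b. Others are named as picked after their values were seen. The Wnt genes and the lists were chosen with earlier results of these data known. Alternatives were DESeq2 1.42.0, other scaling, no minimum count, both strains in 1 fit, no pairing and each mouse left out.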

Additional observations from a re-analysis of the deposited data

Results flagged for a closer look

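In groups of 4 to 6 libraries the highest or lowest library was checked against the others for the 6 Wnt genes called between the portions, and 7 of 42 groups had a library standing apart by Dixon's criterion at 95%. Some such groups arise by chance alone. For Dkkl1 they were the anterior library of B6D2F1N enriched mouse 4 with 123 CPM, above the others, the anterior library of B6D2F1N standard mouse 3 with 28.9 CPM, below the others, and the posterior library of B6D2F1N enriched mouse 2 with 47.6 CPM, above the others. For Dkk3 it was the anterior library of B6D2F1N enriched mouse 4, with 2370 CPM. For Lgr5 it was the posterior library of C57BL/6J enriched mouse 3, with 0.515 CPM. For Rspo3 they were the posterior libraries of B6D2F1N standard mouse 1, with 53.6 CPM, and of C57BL/6J enriched mouse 3, with 21.2 CPM.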

How the results depend on the processing

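None of the 8 fold changes called between the portions reversed under any alternative run. Among genes not called, the sign of small fold changes did change in B6D2F1N: without standard mice 2 to 5, a setting added after seeing the data, Wnt4 was 0.14, Fzd3 -0.13 and Lgr4 0.24, against -0.16, 0.009 and -0.04 with all mice, and Fzd10 was -0.35 under DESeq2 against 0.003 in edgeR. In the portion comparisons, 28 of 30 counts of called Wnt genes under alternatives stayed within 1.5 times the main count, and 106 of 108 fold changes kept their side of the threshold. In the other comparisons the main count was 0, and 117 of 126 alternatives also gave 0, many of them with 0 or few genes called over the whole genome, so this says little about stability. The exceptions among the folds were Wnt2 in C57BL/6J without standard mouse 4 (-3.36, adjusted p = 0.0521) and Wnt9a without standard mouse 1 (-2.54, adjusted p = 0.0565). Between portions of B6D2F1N mice, DESeq2 called 4 Wnt genes (Dkk3, Dkkl1, Wnt2b and Wnt9a) in place of 2. A single portion effect fitted over both strains called 7, with 8.6% of all genes called, and holds the C57BL/6J pairs as well, so it is no count for B6D2F1N alone. DESeq2 called 1 between strains in the standard anterior setting (Sfrp5), 1 in the standard posterior setting (Dkkl1), 2 in the enriched posterior setting (Frzb and Sfrp1) and 1 between housings in the C57BL/6J posterior portion (Wnt3), where edgeR called 0. Over all genes DESeq2 called 1.2%, 1.82%, 1.53% and 1.56% in these comparisons, against 0.37%, 0.373%, 0.394% and 0.0163% by edgeR. With no minimum count 2 were called between housings in the C57BL/6J anterior portion (Sfrp5 and Wnt3), with 0.949% of all genes called. Sfrp5 was 7.74 CPM in enriched mouse 1 and 0.0501 CPM in enriched mouse 3, against 0.137 to 0.224 CPM in standard mice. Wnt3 was 15.7 and 1.85 CPM in these enriched mice. Leaving out 1 mouse at a time, the calls ran from 0 to 2 between strains in the standard posterior setting (0.239% to 0.667% of all genes) and in the enriched posterior setting (0.269% to 0.341%). Between housings in the C57BL/6J posterior portion they ran from 0 to 1, with 0.717% of all genes called without enriched mouse 3, where Wnt3 passed, and 0% without any of the others. The cause was not tested. Without the pairing, the replicate block left out, 6 Wnt genes were called in C57BL/6J and 2 in B6D2F1N, all of them shared with the paired fit, beside 2.74% and 4.22% of all genes. With 2 enriched anterior C57BL/6J libraries, leaving out 1 leaves a lone library that is assumed to vary like the others. Over all genes, DESeq2 called 8.64% between portions in C57BL/6J and 10.4% in B6D2F1N. Settings chosen after seeing the marker levels, without B6D2F1N standard mice 2 to 5 or without enriched mice 1 and 3, each called 2 Wnt genes in B6D2F1N, beside 2.98% and 2.36% of all genes. Genes near 0 counts are limited by depth.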
